A study of Mus musculus with 4 samples.

Results

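Clustered Runx3 peaks inside genes were taken from the ChIP peak list of splenic CD8 T cells. A ChIP peak was called shared when it overlapped a CUT&RUN peak by at least 1 bp. A shared peak belonged to the set when its summit lay inside a RefSeq gene, over 1 kb from both ends of every gene, and when another shared summit lay within 12.5 kb. The set held 1535 peaks on chromosomes 1 to 19 and X, of 8694 shared peaks there and 13166 ChIP peaks in all. Both libraries came from wild type adult mice, from spleen cells isolated with beads against CD8a, and both used the same rabbit antiserum against Runx3 at 1 in 200. The ChIP library was made from 50000000 frozen cells pooled from 5 mice, and the CUT&RUN library from 150000 fresh cells of 1 mouse. Each assay had 1 library, so no value has a replicate check and no test between groups was possible. After duplicate removal, per the file headers, 9532996 of 48285251 ChIP fragments and 14068364 of 17896991 CUT&RUN fragments remained. Membership rests on the peak calls of both libraries, and the heights of the peaks below are therefore descriptions.

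Runx3 belongs to the RUNX family of transcription factors, which bind DNA through the Runt domain together with the partner Cbfb. It is known for silencing Cd4 and for driving the cytotoxic programme in CD8 T cells. Groups of binding sites inside genes can belong to enhancers, stretches of DNA that act on a promoter from a distance. Whether the peaks of this set are enhancers was not tested. A magnetic bead preparation against CD8a can also carry CD8a-positive dendritic cells.

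A few of the clustered peaks could be set beside sequence, because a RefSeq table for GRCm38.p6 (mm10) gives 250 bases before and 50 after annotated transcript starts. Of the 1499 members on chromosomes with such windows, 50 (3.34%, exact 95% Clopper-Pearson interval 2.49 to 4.37) had their summit in one, since many starts lie inside a longer gene span. Isolated shared peaks inside genes did so in 7.51% of 1757 cases (6.32 to 8.85). A start lay within 1 kb of the summit for 128 of the 1499 members (8.54%, 7.17 to 10.1). It did for 12.1% of the isolated peaks (10.6 to 13.7). The letters TGTGGT or TGCGGT, the core of the RUNX motif, searched on both strands, were in 24 of the 50 windows (48%, 33.7 to 62.6). They were in 40.9% (32.4 to 49.8) of 132 windows with an isolated peak and in 22.3% of all 32619 windows. In windows with a shared peak within 1 kb of a gene end, the shares were 39.3% for clustered and 42.0% for isolated peaks. In 22 of the 24 windows the nearest match was centred within 50 bases of the ChIP summit, at a median distance of 14 bases. A match of letters does not show a bound site. The 8 windows with the highest ChIP peaks are shown to let the reader see these letters next to the summits, each as up to 50 bases on either side of the ChIP summit where these lie within the 250 bases before the start, 5′ to 3′ on the strand of the gene. Capitals mark TGTGGT or TGCGGT, or their reverse complements ACCACA and ACCGCA.
Ptpn22 (chr3:103860150-103860250, plus strand): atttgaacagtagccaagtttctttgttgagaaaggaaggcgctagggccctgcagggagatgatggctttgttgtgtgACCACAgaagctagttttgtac
Egr2 (chr10:67537316-67537399, plus strand): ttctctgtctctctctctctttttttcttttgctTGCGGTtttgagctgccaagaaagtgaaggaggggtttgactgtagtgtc
Unk (chr11:116030139-116030239, plus strand): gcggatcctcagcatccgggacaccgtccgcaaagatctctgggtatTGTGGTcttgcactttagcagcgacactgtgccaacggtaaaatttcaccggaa
Tnrc6a (chr7:123123723-123123823, plus strand): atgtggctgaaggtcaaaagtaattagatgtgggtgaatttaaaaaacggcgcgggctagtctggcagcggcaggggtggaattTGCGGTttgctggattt
Sptbn1 (chr11:30198258-30198347, minus strand): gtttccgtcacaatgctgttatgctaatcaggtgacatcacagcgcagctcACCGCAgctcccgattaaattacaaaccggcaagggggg
Ubxn6 (chr17:56075077-56075177, minus strand): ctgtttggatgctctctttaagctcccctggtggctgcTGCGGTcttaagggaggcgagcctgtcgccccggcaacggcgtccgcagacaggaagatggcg
Zfp821 (chr8:109705258-109705333, plus strand): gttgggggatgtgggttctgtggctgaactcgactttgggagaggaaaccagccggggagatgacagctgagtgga
Rps6ka1 (chr4:133873069-133873169, minus strand): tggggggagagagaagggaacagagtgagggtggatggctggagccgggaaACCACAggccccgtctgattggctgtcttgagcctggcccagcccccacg

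The highest of these was at Ptpn22, the gene of a phosphatase that restrains T cell receptor signalling. Its summit at chromosome 3, 103860200 lay 77 bases upstream of a start, with a ChIP pileup of 43 (95% Poisson interval 31.1 to 57.9). Pileup is the number of fragments over the summit. The CUT&RUN pileup was 142 (120 to 167), and the summits of both assays lay 11 bp apart. Egr2, the gene of a zinc finger factor induced by receptor signals, had pileups of 29 and 67 at chromosome 10, 67537349, with the RUNX letters centred 3.5 bases from the summit. At Unk, the gene of an RNA-binding zinc finger protein, the pileups were 27 and 120 and a match was centred 0.5 bases from the summit. Tnrc6a, which encodes a protein of microRNA silencing, and Sptbn1, which encodes a spectrin, both had a ChIP pileup of 27, with CUT&RUN pileups of 31 and 29. Ubxn6 had 26 and 62, Rps6ka1 (a ribosomal S6 kinase) had 25 and 31, and Zfp821 had 25 and 47. The Zfp821 window held no match, and the other 7 held at least 1. Other letters were searched in the same windows on both strands. TGACG, part of the CRE motif, was in 38% of the 50 windows (24.7 to 52.8) against 20.9% of all windows. It was in 33.3% of windows with an isolated peak inside genes. At gene ends it was in 41.0% of windows with a clustered peak and 40.9% with an isolated one. GGAAGT, an ETS core, was in 22% (11.5 to 36.0) against 23.9% of all windows. TGANTCA (AP-1) was in 4% (0.488 to 13.7) against 7.85%, CTTTGA (TCF/LEF) in 2% (0.0506 to 10.6) against 16.0%, and CAGCTG or CACCTG (E-box) in 30% (17.9 to 44.6) against 33.1%. The 50 windows were few, and for all 6 motifs their interval overlapped that of the windows with isolated peaks.

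Shared peaks inside genes lay near another shared peak in 45.9% of 3341 cases (44.2 to 47.7). The share was 44.9% (42.4 to 47.5) of 1538 shared peaks between genes and 29.6% (28.2 to 31.1) of 3815 at gene edges, within 1 kb of a gene end. Clustered peaks inside genes had a median ChIP pileup of 14 (quartiles 10 and 20), and isolated ones had 13 (10 and 19). Their CUT&RUN pileup had a median of 38 (25 and 59.5) against 32 (20 and 51) at isolated peaks. Clustered peaks were in the top 10% of the ChIP list in 17.8% of cases (15.9 to 19.8) and isolated ones in 14.2% (12.7 to 15.9). In the CUT&RUN list the shares were 17.5% (15.7 to 19.5) and 17.4% (15.7 to 19.3). The list rank follows q, which depends on the local background. CUT&RUN fold over background had medians of 14.9 at clustered and 17.2 at isolated peaks. The caller took that background from the 10 kb around each peak, which can hold the neighbour that the rule asks for. CUT&RUN pileup divided by fold had medians of 2.53 at clustered and 1.83 at isolated peaks. Whether neighbours account for the lower CUT&RUN fold was not tested. ChIP fold had medians of 7.06 and 6.59.

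**Figure D1:**
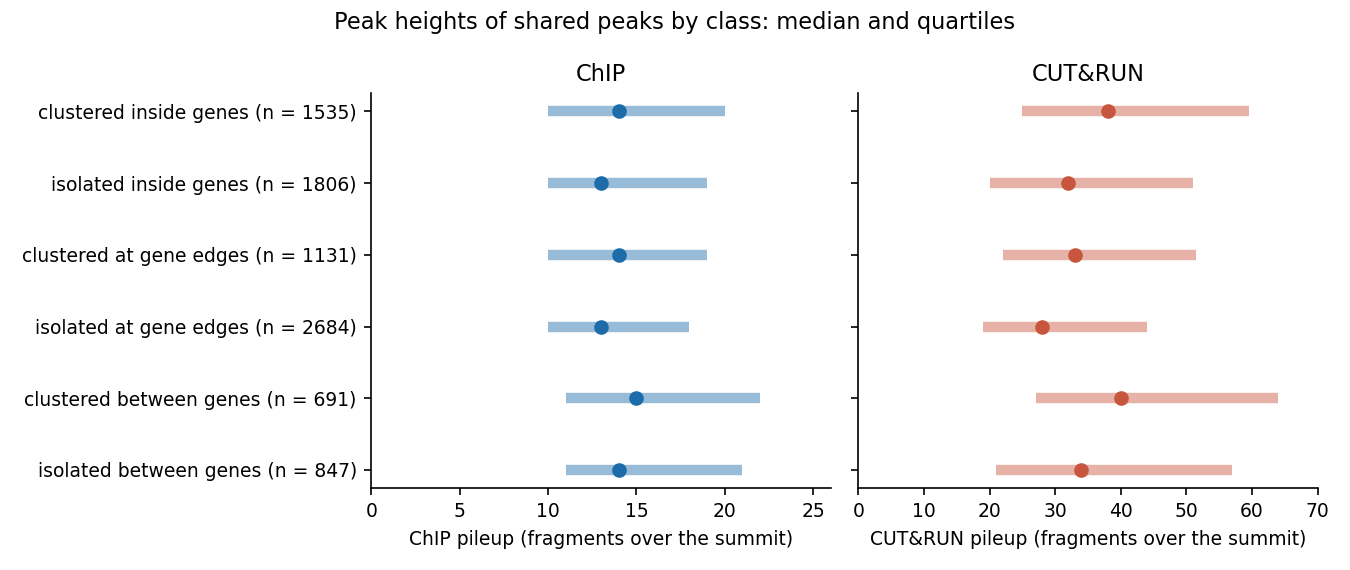
Median (point) and quartiles (bar) of pileup, in fragments over the summit, for 6 classes of shared peaks in ChIP (left) and CUT&RUN (right). In CUT&RUN, clustered classes have higher medians than isolated ones in the same place (38 against 32 inside genes), and in ChIP the medians are 14 and 13.

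Summits of the assays lay a median of 31 bp apart at clustered peaks (quartiles 14 and 59 bp) and 30 bp apart at isolated peaks inside genes. They lay within 50 bp in 68.7% (66.3 to 71.0) and 69.7% (67.5 to 71.8) of cases. At gene edges the median was 43 bp for clustered and for isolated peaks, and 56.1% of clustered edge peaks (53.1 to 59.0) were within 50 bp. Across the 1535 clustered peaks, ChIP and CUT&RUN pileups had a Spearman rho of 0.592, against 0.572 across isolated peaks inside genes and 0.448 across clustered edge peaks. The points of each correlation share the same pair of libraries.

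Most clustered peaks had their neighbour in the same gene. The nearest shared summit lay at a median of 3.98 kb (quartiles 1.70 and 7.34 kb), within 1 kb for 213 members and within 5 kb for 884. It was another member in the same gene for 1101 members (71.7%), a gene-edge peak for 354 (23.1%, 21.0 to 25.3) and an intergenic peak for 57 (3.71%). Only 10 members overlapped a CUT&RUN peak that also overlapped another ChIP peak. Runs were formed by joining shared summits up to 12.5 kb apart. Of the 835 runs with a member, 374 (44.8%, 41.4 to 48.2) held members only, and 411 (49.2%, 45.8 to 52.7) also held a gene-edge peak. There were 341 runs with exactly 2 members and 148 with 3 or more. A run spanned a median of 7.19 kb (quartiles 3.37 and 11.5 kb) and at most 39.5 kb. Members with 1 shared neighbour within 12.5 kb had median pileups of 14 in ChIP and 36 in CUT&RUN. Those with 3 or more (177 members) had 16 and 44, and the quartiles overlapped (10 to 20 against 11 to 22 in ChIP).

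**Figure D2:**
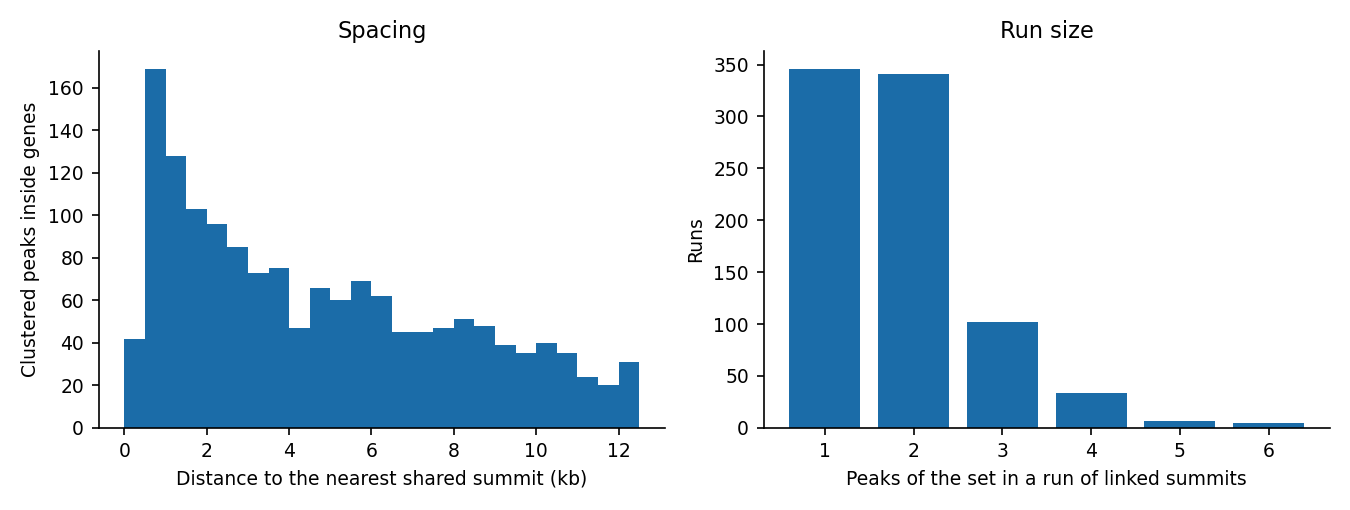
Left, number of clustered peaks by distance to the nearest shared summit in bins of 0.5 kb; right, number of runs by how many clustered peaks they hold (1 to 6). Distances pile up below 2 kb (442 of 1535 peaks), and few runs hold more than 3.

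The highest member of each run was compared between the assays, leaving aside gene-edge and intergenic peaks of the run. Of 324 runs with 2 members and no tie in either assay, the member higher in ChIP was also the higher in CUT&RUN in 223 (68.8%, 63.5 to 73.8). In runs of 3 members the same member led in 59 of 92 (64.1%, 53.5 to 73.9), and in runs of 4 or more in 26 of 43 (60.5%, with a lower bound of 44.4%). A random pick would match as often as not in runs of 2 members and less often in longer runs. These shares therefore cannot be compared between run sizes. The highest member of a run was a median of 1.5 times the next member in ChIP (quartiles 1.22 and 2.0) and 1.6 times in CUT&RUN (1.21 and 2.26). At pileups near the median these steps are within counting error, since a pileup of 14 has a Poisson interval of 7.65 to 23.5.

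Clustered peaks lay towards the 5′ ends of their genes. The promoter table gave a strand for the protein-coding host of 1106 members, and 37.1% of these (34.2 to 40.0) lay in the 25% of the gene nearest its 5′ end, against 13.7% (11.7 to 15.8) in the 25% nearest its 3′ end. Isolated peaks inside genes had 32.5% (29.9 to 35.2) and 17.6% (15.6 to 19.8). Clustered peaks lay a median of 18.3 kb from the 5′ end and isolated peaks 26.7 kb, with host genes of median length 73.7 and 84.4 kb. In genes of 50 kb or more, the shares in the first 25% were 37.6% (33.9 to 41.4) and 32.0% (28.9 to 35.3). The 5′ end is the outermost one in the gene table, and used promoters can lie inside the span.

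**Figure D3:**
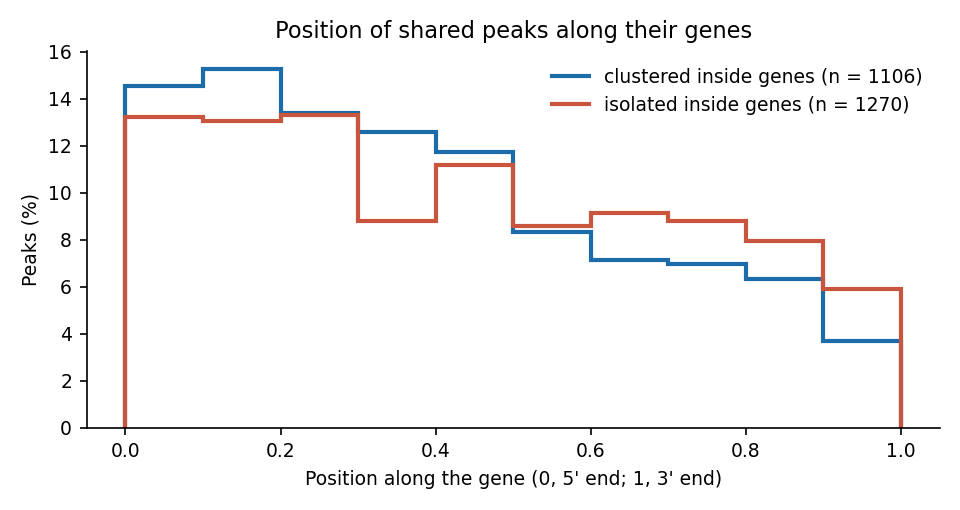
Share of peaks (%) in each 10% of the gene from its 5′ end (0) to its 3′ end (1), for 1106 clustered and 1270 isolated shared peaks inside genes of known strand. Both lines are lower at the 3′ end than at the 5′ end, and the clustered peaks have the higher share in the first 25% (37.1% against 32.5%).

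Peaks nearby that only 1 list held were also counted. A ChIP-only summit lay within 12.5 kb of 33.6% of clustered peaks (31.2 to 36.0) and of 17.1% of isolated ones (15.3 to 18.9). A CUT&RUN-only summit lay there for 33.0% (30.6 to 35.4) and 27.2% (25.1 to 29.3). ChIP-only peaks were not used by the rule beyond their lack of overlap. They come from the same ChIP list and the same overlap call as the members, so the contrast is a description.

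The 1535 peaks lay in 873 genes, 717 of them protein-coding, which is 3.31% of the 21631 protein-coding genes on these chromosomes. An isolated shared peak lay in 1383 protein-coding genes (6.39%). At least 2 members lay in 394 protein-coding genes (1.82%), and 70 genes of any type held 4 or more. Protein-coding hosts had a median length of 48.2 kb, against 17.3 kb for all protein-coding genes. Genes with an isolated shared peak and no member had a median of 64.4 kb. The share of genes with a member was 2.78% at lengths of 17.3 to 20.9 kb, 3.33% at 36.3 to 44.9 kb and 8.97% at 109 to 188 kb. In the longest 5% of genes it was 6.84%. Counts for gene lists are therefore read against genes of like length.

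Ubac2, the gene of a ubiquitin-associated membrane protein on chromosome 14 (121878559 to 122021035), held 11 members, more than any other gene. They fell into 3 runs over 118 kb. The ChIP pileups of the 11 ran from 7 to 22 (median 15), and their CUT&RUN pileups from 11 to 73 (median 37), so their medians lay near those of the whole set. Of the 11, 3 also lie in Gpr183, which is nested in Ubac2 and encodes a receptor that guides lymphocytes by oxysterols. Thada on chromosome 17 (84190056 to 84466246) held 9, of which the highest, at 84333145, had 42 ChIP (30.3 to 56.8) and 116 CUT&RUN fragments, 3 bp apart. The other 8 in Thada had ChIP pileups of 8 to 25. Ankrd44, which encodes a regulatory subunit of protein phosphatase complexes, held 8 members on chromosome 1, spread over 69.6 kb at the 5′ end of a gene of 284 kb. All 8 were below the median of the set in CUT&RUN, with pileups of 15 to 35, and their ChIP pileups ran from 8 to 23.

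Of the 10 genes with 7 or more members, 3 encode T cell transcription factors of the lists below. Foxp1, a forkhead factor that keeps T cells quiescent, held 9 members on chromosome 6, between 99374564 and 99498292, all in the part of the 597 kb gene nearest its 5′ end. Their ChIP pileups were 9, 11, 25, 15, 10, 13, 33, 11 and 20 in genome order, and their CUT&RUN pileups 13, 30, 38, 13, 18, 23, 47, 83 and 48. The ChIP peak with the highest value, at 99435267, was not the one with the highest CUT&RUN value, at 99486424. Bach2, a repressor that holds back effector differentiation, held 7 members in 2 runs on chromosome 4. The members of the first run had ChIP pileups of 25, 28 and 53 and CUT&RUN pileups of 50, 63 and 107. Those of the second had 14, 16, 41 and 18 against 45, 39, 143 and 27. Among the members of each Bach2 run the same summit, at 32258317 and at 32344004, led in both assays. Lef1, which encodes a partner of beta-catenin in naive T cells, also held 7 members in 2 runs on chromosome 3. The run nearest the 5′ end had ChIP pileups of 16, 9 and 10 and CUT&RUN pileups of 29, 24 and 73. The other Lef1 run had 22, 45, 19 and 10 against 60, 96, 42 and 18, and both assays gave all 4 summits in the same order. Chd7, which encodes a chromatin remodeller, held 7 on chromosome 4, led in both assays by 8811191 with 37 (26.1 to 51.0) and 104 (85.0 to 126) fragments.

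**Figure D4:**
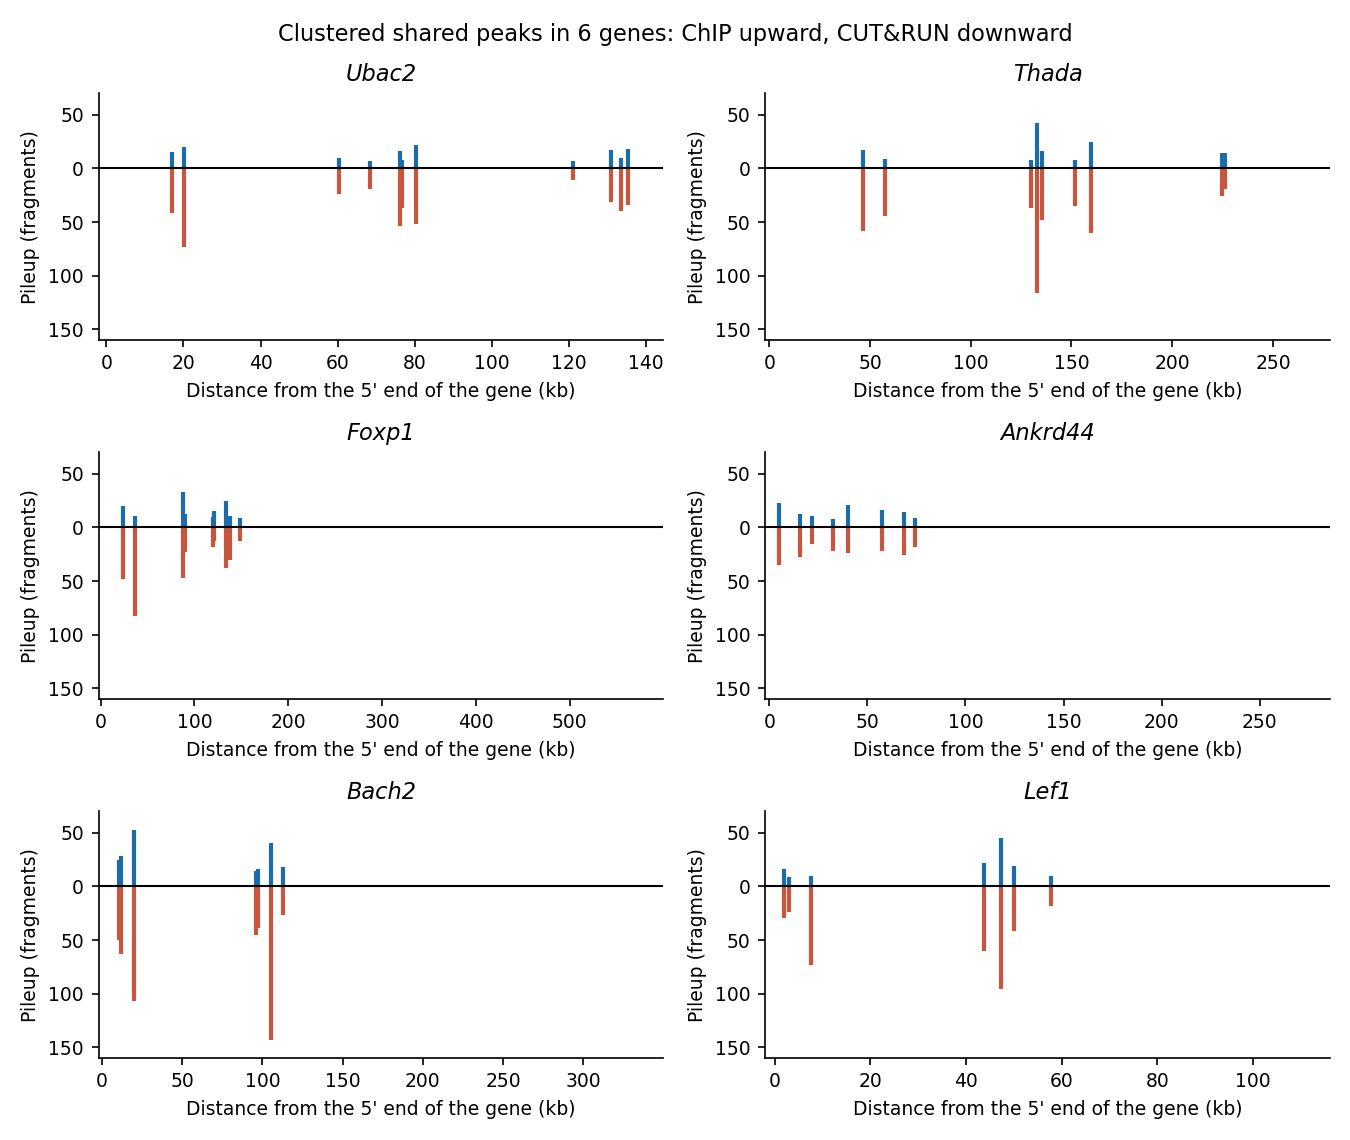
Pileup in fragments (vertical axis, ChIP upward in blue and CUT&RUN downward in red) of each clustered shared peak along 6 of the 10 genes with 7 or more members (among those tied at 7, the 2 with the highest summed ChIP pileup), by distance in kb from the 5′ end. In Foxp1 and Ankrd44 all members lie in the part of the gene nearest the 5′ end, and in Bach2 they form 2 runs with 1 highest summit each.

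Other hosts with 6 or 7 members included kinase, adaptor and glycosylation genes. Prkch, the gene of protein kinase C eta, held 6 members on chromosome 12 with ChIP pileups of 28, 28, 35, 26, 9 and 37 and CUT&RUN pileups of 96, 75, 127, 76, 44 and 79. All but 1 of the 6 in Prkch were above the upper quartile of the set in both assays. Grap2, the gene of the adaptor Gads that joins LAT to SLP-76, held 6 in a single run of 23.8 kb on chromosome 15. Their ChIP pileups were 31, 32, 11, 33, 20 and 12, and their CUT&RUN pileups 64, 75, 74, 71, 58 and 24. At 80610562 in Grap2 both summits fell on the same base. Itpkb, the gene of an inositol trisphosphate kinase, held 7 lower ones, with ChIP pileups of 8 to 18 and CUT&RUN pileups of 16 to 84. Rras2, a RAS family gene, held 6 in 1 run of 24.3 kb, led by 45 (32.8 to 60.2) and 104 fragments at chromosome 7, 114069429. Sgms1 (sphingomyelin synthase) held 7 members with ChIP pileups of 9 to 29, St8sia1 (a ganglioside sialyltransferase) 7 with 7 to 24, and Galnt2 (a mucin-type glycosyltransferase) 6 with 10 to 38. The highest peak in Galnt2, at chromosome 8, 124317963, had 184 CUT&RUN fragments (158 to 213), while its other 5 had 22 to 56. Gramd3 held 6 members with ChIP pileups of 8 to 35.

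The highest clustered peaks were ranked in each assay. The highest in both assays lay in Ppp1r16b, a phosphatase regulator, at chromosome 2, 158719399, with 94 ChIP (76.0 to 115) and 200 CUT&RUN fragments (173 to 230), 8 bp apart and 46.9 kb from the nearest gene end. Its only shared neighbour was 12.3 kb away, close to the limit of the rule. Among the 10 highest in ChIP were also Eps15l1 (61 and 133 fragments, with 4 shared neighbours), Ubash3b (57 and 95), Herc3 (55 and 44), Bach2 (53 and 107), Stk17b (48 and 114) and BC004004 (53 and 174). Ubash3b encodes a phosphatase of T cell receptor signalling, and Stk17b a kinase of T cells. The 3 others, with ChIP pileups of 83, 60 and 54, lay in Gm30217, D730003K21Rik and Gm17767. The 10 highest in CUT&RUN shared only Ppp1r16b and BC004004 with these. They included Lonp2 (46 ChIP and 198 CUT&RUN fragments), Inpp5d, the gene of the phosphatase SHIP1 (33 and 186), Ptk2b, the gene of the kinase Pyk2 (24 and 178), Limd1 (20 and 172), and Tspan32, a tetraspanin gene (28 and 164). The rest were in Galnt2, given above, Gm34086 (37 and 178), and a stretch where P2rx4 and Camkk2 overlap (35 and 166). A peak in Cmss1 and Filip1l with a ChIP pileup of 121 was left out of this ranking. Its fold was only 3.54, and its pileup divided by fold was 17.4 times the list median.

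Of 49 T cell transcription factor genes, 20 held a member (40.8%, 27.0 to 55.8), against 5.72% of protein-coding genes of like length. They held 72 members with a median ChIP pileup of 13.5 and a median CUT&RUN pileup of 36. Beside Foxp1, Bach2 and Lef1, those with 3 or more were Ets1, Fli1 and Satb1 with 5 each, Ikzf1, Bcl11b and Klf13 with 4, and Tcf7, Elf1, Nfatc1 and Nfkb1 with 3. In Tcf7, which encodes TCF1, a factor of naive and memory T cells, the 3 members had ChIP pileups of 31, 13 and 9 and CUT&RUN pileups of 90, 39 and 31. Both assays put them in the same order. In Satb1, a chromatin organiser of thymocytes, the 5 had ChIP pileups of 13, 13, 7, 9 and 22 and CUT&RUN pileups of 40, 24, 15, 14 and 52. Elf1, an ETS factor gene, had its highest member at chromosome 14, 79532344, with 40 (28.6 to 54.5) and 90 fragments. Runx1, which encodes another RUNX protein, had 2 members, with ChIP pileups of 15 and 26 and CUT&RUN pileups of 59 and 89. Runx3 itself held no member and 1 isolated shared peak.

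Of the genes that define T cells or relay signals of their antigen receptor, a member was found in 10 of 28 cases (35.7%, 18.6 to 55.9), against 4.96% of genes of like length. Prkcq, the gene of protein kinase C theta, which acts below the receptor and CD28, held 6 in 1 run of 36.6 kb on chromosome 2. The ChIP pileups in Prkcq were 11, 19, 8, 25, 7 and 21, and the CUT&RUN pileups 20, 33, 43, 83, 12 and 21, with the highest of both at 11203558. Csk, which encodes the kinase that inhibits Lck, held 4, of which 1, at chromosome 9, 57640562, stood above the rest with 40 and 85 fragments, against 8 to 13 and 14 to 42. Cd247 (the CD3 zeta chain) held 3, Cd28, Ptprc, Lcp2 and Ptpn22 held 2 each, and Lck and Fyn 1 each. The second member in Ptpn22 had 31 and 113 fragments. The constant region gene Trac, which is not counted as protein-coding here, held 1, with 11 and 71.

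Cytokine receptor and JAK-STAT genes held a member in 10 of 32 cases (31.3%, 16.1 to 50.0), against 4.09%. Their 20 members had medians of 20.5 in ChIP and 56 in CUT&RUN, the highest of the 10 function lists in both assays. Il2ra, the alpha chain of the IL-2 receptor, held 3 on chromosome 2 with ChIP pileups of 41, 14 and 13 and CUT&RUN pileups of 106, 57 and 33. Il18r1, which encodes an IL-18 receptor chain, held 3 that were nearly alike in ChIP (28, 25 and 27), while CUT&RUN gave 55, 60 and 122. Stat5b, a signal transducer below IL-2 and IL-7, held 3 with 21, 9 and 31 in ChIP and 104, 22 and 102 in CUT&RUN. Stat4, the transducer of IL-12, held 3 with 19, 20 and 11 and with 30, 108 and 39. Il12rb2 and Jak1 held 2 each, and Il7r, Il21r, Ifngr1 and Ifngr2 held 1 each.

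In the TGF-beta pathway, 3 of 16 genes held members (18.8%, 4.05 to 45.6, against 6.31%). Smad3, a transducer of the pathway, had 3 with ChIP pileups of 9, 17 and 48 and CUT&RUN pileups of 53, 51 and 91. Smad7 and Ski, both inhibitors, held 4 each, with ChIP pileups of 7 to 20 and 11 to 17. The receptor genes Tgfbr1, Tgfbr2, Tgfbr3, Bmpr1a, Bmpr2, Acvr1b and Eng held no member. Isolated shared peaks lay in Tgfbr2 (2) and Tgfbr3 (1). For so few genes, counts of 0 lie near the rate of 6.31%.

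Adhesion and migration genes held a member in 10 of 27 cases (37.0%, 19.4 to 57.6, against 3.97%). Selplg had a member of 37 and 92 fragments and another of 15 and 32. Rac2, Itgb7 and Coro1a held 2 each. Ccr7, the receptor of lymph node homing, held 1 of 31 and 38 fragments, and Cd69, which retains cells in tissue, 1 of 26 and 66. PI3K, mTOR and RAS genes held members in 9 of 28 cases (32.1%, 15.9 to 52.4, against 6.12%), with 4 each in Pik3r5 and Rasa3 and 3 in Pik3ip1, an inhibitor of PI3K, where CUT&RUN gave 107, 56 and 100 fragments and ChIP 16, 12 and 26. Chromatin genes held them in 5 of 34 cases (14.7%, 4.95 to 31.1, against 6.41%). Hdac4 had 5 of these members, with CUT&RUN pileups of 84, 115, 115, 27 and 62 and ChIP pileups of 15, 28, 26, 13 and 10.

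Inhibitory and costimulatory receptor genes held a member in 4 of 24 cases (16.7%, 4.74 to 37.4, against 3.83%), with 4 members in Vsir, the gene of VISTA, led by 41 and 111 fragments. Cytotoxic and effector genes held one in 3 of 23 cases (13.0%, 2.78 to 33.6, against 1.96%). These were Prf1 (26 and 63), Srgn (13 and 22) and Gzmm (11 and 13). The 23 genes of the list had a median length of 7.81 kb. Housekeeping genes held one in 3 of 18 cases (16.7%, 3.58 to 41.4, against 1.90%), with 4 members in Ywhaz, 2 in Actb and 1 in Tubb5. Genes of like length include silent genes, and expression was not matched. Marker genes of other cells mostly held none: 0 of 15 for B cells, 0 of 15 for monocytes, macrophages and neutrophils, 0 of 8 for NK cells, 0 of 13 for erythroid cells, 0 of 14 for hepatocytes and 0 of 16 for neurons. Of genes of like length, 3.72% held a member for the B cell list and 2.56% for the monocyte, macrophage and neutrophil list. The rates were 2.55% for NK cells, 1.83% for erythroid cells and 2.79% for hepatocytes, so counts of 0 in such short lists lie near these rates. For lists of 15 genes, a count of 0 has an upper 95% bound of 21.8%. The neuronal genes had a median length of 168 kb, and 5.43% of genes of like length held a member. Dendritic cell markers had 1 of 10, Zbtb46, with 9 and 30 fragments, against 3.22% of genes of like length. Among 12 T cell markers, Cd247, Lck and Bcl11b held members (25%, 5.49 to 57.2, against 3.46%). Cd8a, Cd8b1, Cd3d, Cd3e, Cd3g, Cd5, Cd6, Cd2 and Thy1 held none.

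**Figure D5:**
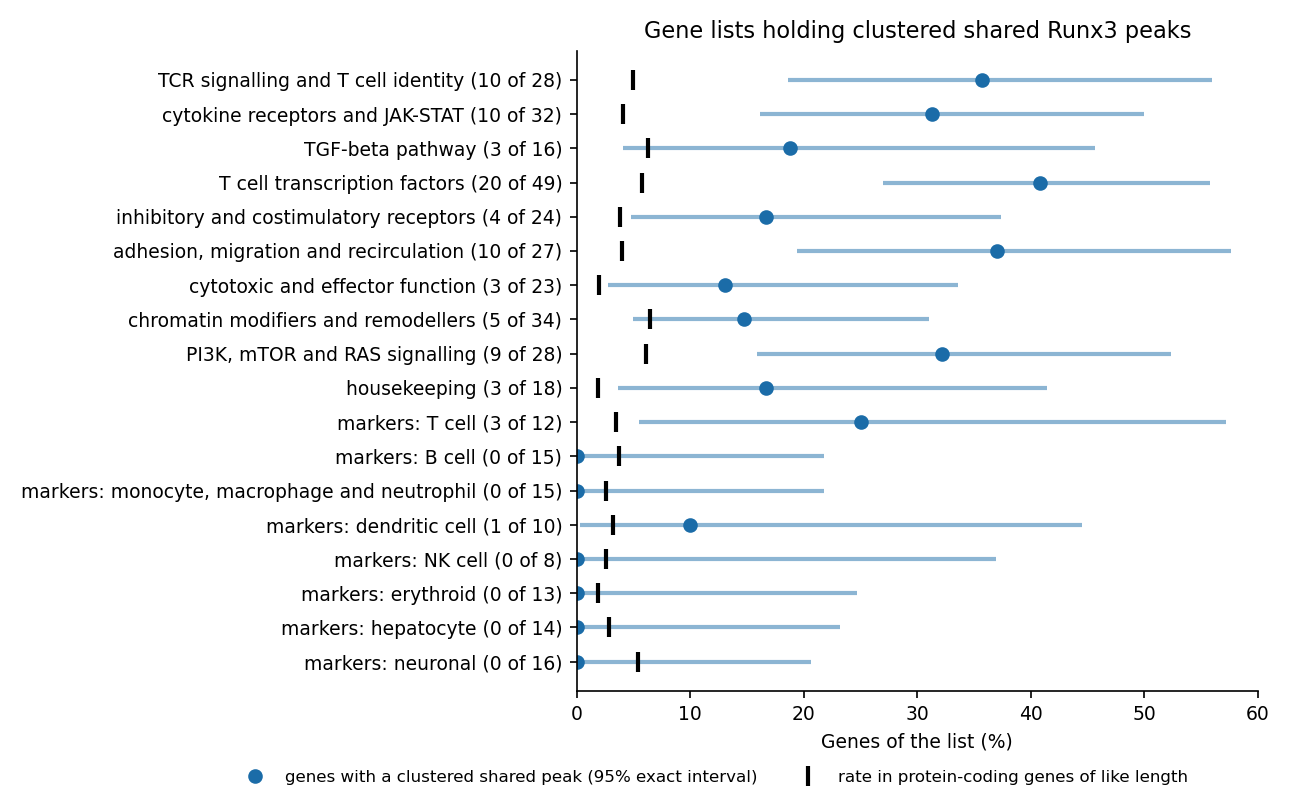
Share of genes (%) of each list that held at least 1 clustered shared peak (point, with its exact 95% interval as a line) and the rate in protein-coding genes of like length (black mark). The point for transcription factors is at 40.8% and that for housekeeping genes at 16.7%, and 6 of the 8 cell type marker lists are at 0; the lists were chosen with earlier results known, and the intervals treat genes as independent.

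Values on either side of the limits of the rule were as follows. Just inside the 12.5 kb limit lay peaks in Mrvi1 (12.497 kb to the nearest shared summit, 19 ChIP and 56 CUT&RUN fragments) and Slc34a1 (12.471 kb, 24 and 56). Just outside lay peaks in Gm41980 (12.518 kb, 12 and 37) and Rapgef6 (12.531 kb, 12 and 9). At the 1 kb limit, a member in Atxn7l3 lay 1.001 kb from a gene end (8 and 45), and a peak in Ssbp2 that was not taken lay 0.997 kb from one (8 and 20).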

How the data were processed

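Runx3 binding was measured in 2 libraries of splenic CD8 T cells, by ChIP and by CUT&RUN. Per the submitters' processing notes, the alignment used Bowtie and mm10, and the peak caller was MACS2. MACS2 (2.1.1.20160309, per the file headers) used a q limit of 0.05 and the extract library as control for ChIP, and a limit of 1e-05 and no control for CUT&RUN, with at most 1 fragment per position kept. For the aligner's settings, nothing is given in the sources used here. In the deposited lists, each peak has a pileup (a coverage signal), −log10 p and q values and a fold over background, as the authors' caller wrote them; the fold is a ratio. Heights were not compared between assays. Peaks of the CUT&RUN library with normal serum were not used here.

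Shared peaks, distances, runs and counts were computed in Python 3.11.15 with pandas 2.3.3 and scipy 1.17.1. The overlap count of 8721 on all sequences was the same in bedtools 2.31.1, and the code was tested on simulated peaks. CUT&RUN height is that of the highest overlapping peak. Intervals (95%, Clopper-Pearson for shares, Poisson for pileups) cover counting error only, and amplified fragments are not independent molecules. Gene spans are those of RefSeq for GRCm38.p6. Rates for genes of like length are means over 20 length bins. All entries of the gene lists matched the table. Genes were named by a rule. It took the 15 hosts with most members, with ties by summed ChIP pileup, which left out Prkcq, Ago2, Lrrfip1 and Cyth1, also with 6. It also took the hosts of the 10 highest members per assay, without high-background peaks, and list genes with a member. High-background peaks are those whose ChIP pileup divided by fold was over 5 times the list median. That ratio is not the background value used by the caller. The members nearest to the limits of the rule were also named. Members and lists were chosen with earlier results of these data known. Egr2, Unk, Tnrc6a, Sptbn1, Ubxn6, Rps6ka1, Zfp821, Trac and Gpr183 were named after their values were seen. Motif counts around all summits were not made, since no genome sequence was used here, and motifs were searched in promoter windows in their place, chosen after seeing which sequences the reference held. Values of 2 list genes are not reported here.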

Additional observations from a re-analysis of the deposited data

How the results depend on the processing

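Values of the set were recomputed under 9 other settings; the comparisons with isolated peaks were not. Linking summits within 5 kb gave 884 peaks in 507 genes, 26.5% of shared peaks inside genes, and 50 of the 279 function-list genes with a member (77 as reported). Linking within 25 kb raised the share to 60.5%. A ChIP limit of q 1e-05 gave 969 peaks, 39.6% of those inside genes, with median pileups of 17 in ChIP and 44 in CUT&RUN. With the stronger 50% of each list there were 531 peaks in 325 genes, a share of 31.2%, 41 list genes, median pileups of 20 and 59, and a median summit distance of 28 bp. Requiring summits within 100 bp gave a share of 42.4% and, by its construction, a smaller median distance of 28 bp. Fewer peaks enter under the stricter settings, which lowers the number of neighbours. The other 45 values, among them those with protein-coding genes only, over 2 kb from gene ends, with an overlap of 50% of the shorter peak and without high-background peaks, stayed within 1.5 times (counts) or within the 95% interval (shares and medians). Alternatives for motif counts around summits were not run, for lack of a genome sequence here. No paired analysis was possible because each group has 1 library. Depth limits the weakest members, with pileups of 7 in ChIP and 10 in CUT&RUN.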

Other observations

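Non-coding genes hosted a part of the set. Of the 1535 clustered peaks, 167 (10.9%) lay in no protein-coding gene, and 150 of the host genes were long non-coding RNA genes, with a median length of 13.5 kb. These 167 had a median ChIP pileup of 15 (quartiles 10 and 24) and a median CUT&RUN pileup of 40 (27 and 65.5), with summits a median of 33 bp apart, so their levels lay close to those of the whole set. Among the highest were Gm31718 on chromosome 8, with 44 ChIP (32.0 to 59.1) and 95 CUT&RUN fragments, and Gm33742 on chromosome 11, with 41 (29.4 to 55.6) and 104. In 1700095J07Rik and Gm5907 the ChIP pileup was 45 in each, and the CUT&RUN pileups were 39 and 52. A430093F15Rik held 4 members, the most of any host that is not protein-coding. Their ChIP pileups were 13, 11, 17 and 10 and their CUT&RUN pileups 59, 18, 71 and 42. These genes were named after their values were seen.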
